A study of Mus musculus with 24 samples.

Results

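The question addressed here was whether EGCG (epigallocatechin gallate), the main catechin in green tea, acted differently on gene expression in differentiating fat cells of white and of brown origin. The comparison was chosen as the EGCG effect in brown cells minus that in white cells on day 8, and it used 12 of the 24 libraries of the series. Stromal vascular cells, a mixed fraction of dispersed fat in which the precursors of adipocytes are found, came from the inguinal white adipose tissue (WAT) and the interscapular brown adipose tissue (BAT) of C57BL/6 mice aged 6 weeks. The sources used here name no genetic change in these mice. All cells received insulin, dexamethasone and the phosphodiesterase inhibitor IBMX for 4 days and then insulin and triiodothyronine for 4 days. The 4 groups were WAT control, WAT EGCG, BAT control and BAT EGCG, with 3 libraries each, and the controls had the solvent DMSO. The dose of EGCG was not given in the sources used here. The labels do not say that replicates were separate isolations of cells, so the p-values measure the spread between these libraries, which may be technical.

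White adipocytes store triglyceride in a single large droplet and release adipokines such as leptin and adiponectin. Brown adipocytes are packed with mitochondria and burn fatty acids and glucose to make heat, and their uncoupling protein, Ucp1, lets protons return to the mitochondrial matrix without making ATP. Both need the nuclear receptor Pparg and the C/EBP factors to differentiate. Cultures of stromal vascular cells hold adipocytes beside cells that did not differentiate, and in bulk RNA fewer adipocytes and less RNA per adipocyte cannot be told apart.

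Expression was measured as FPKM (fragments per kilobase of gene length, scaled to a fixed number of reads on genes). For each gene the change in a depot was the mean log2(FPKM + 1) of the EGCG libraries minus that of the controls, and the depot difference was the change in BAT minus the change in WAT. A negative depot difference means that the change was lower in BAT than in WAT, and a positive value the reverse. Tests used replicates 1 and 2, and a gene was called when its limma p, adjusted over all 14095 genes tested, was under 0.05. The verbs rose and fell are used for changes that passed this test. Replicate 3 came from a second table, and its own difference is given beside the fitted value without a test. Because 1 is added to each FPKM, a change near 0 FPKM is understated, so a fit on the reads (limma voom) is quoted where it gave another answer.

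Reads on genes numbered 39452696 to 52893848 per library in replicates 1 and 2 over both days, and 16392420 to 41675643 in replicate 3. In the replicate 3 library of WAT EGCG, 5 genes that had between 0 and 5 reads in every other library (Prl3d1, 1700007K09Rik, 4930555F03Rik, 6030405A18Rik and Gm4675) took 61.0% of the reads. They were left out of that library and its other values were rescaled. Of these genes, 4930555F03Rik, 6030405A18Rik and Gm4675 had the same count, 3292684 reads each. The same reads may thus have been counted for each of them, and the share of 61.0% may hold them repeatedly. The positional genes matched the depot labels. Zic1, a transcription factor of brown fat precursors, reached at most 0.187 FPKM in WAT and was at 3.57 to 8.00 in BAT, while Hoxc10, a marker of the inguinal depot, was at 8.37 to 14.4 FPKM in WAT and at most 0.121 in BAT. The adipocyte markers Adipoq, Plin1, Fabp4, Cidec and Pparg were high in all 6 control libraries and lower in all 6 EGCG libraries. Replicates differed most among the WAT controls, where the SD over genes of the log2 gap between replicates 1 and 2 was 0.266, against 0.176 to 0.209 in the other groups.

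EGCG changed a large part of the transcriptome in both depots, and in many genes by unequal amounts. In WAT 6302 genes (44.7% of those tested) rose and 2660 (18.9%) fell, and in BAT 6549 (46.5%) rose and 3682 (26.1%) fell. The median gene moved up by 0.17 in each depot, and scaling the libraries by the median ratio of their genes gave 4087 higher and 3888 lower in WAT and 5100 and 4741 in BAT. The depot difference passed the test for 5520 genes, which is 39.2% of the genes tested. It was positive for 2738 (19.4%) and negative for 2782 (19.7%). Its median over all genes was 0.01, with quartiles of -0.26 and 0.27 and a median standard error (SE) of 0.12, and the median was 0.02 under median-ratio scaling. At a size of 1 or more on the log2 scale 854 genes were called (6.06%), of which 537 were negative and 317 positive. In replicate 3 the sign was the same for 94.3% of the called genes, against 75.1% of all genes.

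**Figure D1:**
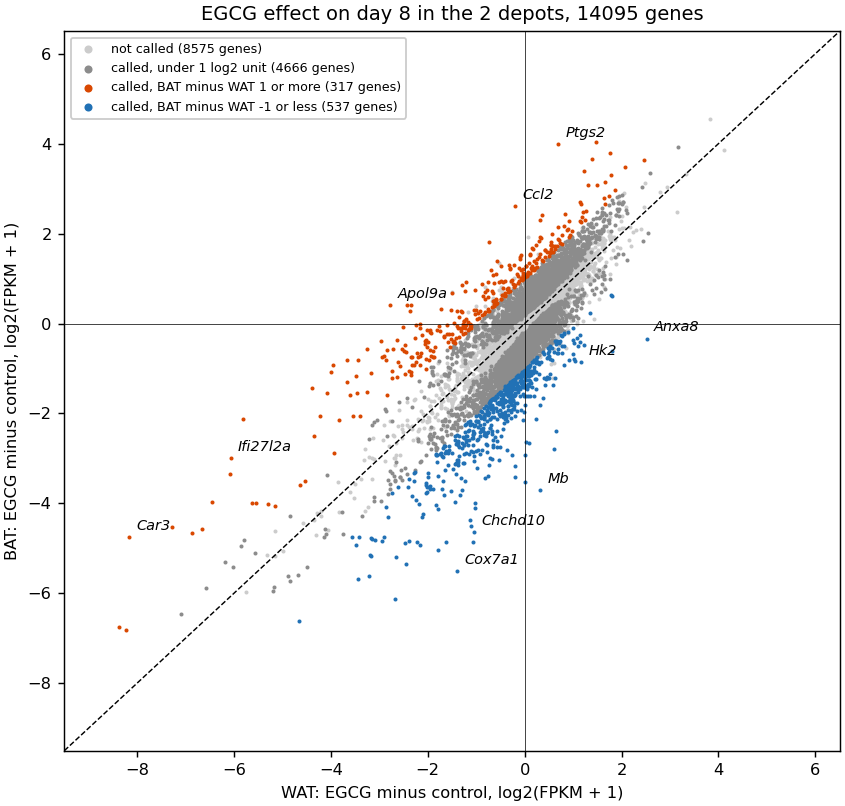
Change with EGCG in WAT (horizontal) against the change in BAT (vertical) for 14095 genes, both as log2(FPKM + 1) from replicates 1 and 2, with 1 point per gene and a dashed line where both changes are equal. The 537 blue genes were called and lie 1 unit or more below the line, and the 317 orange genes were called and lie 1 unit or more above it.

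The unequal changes took several forms. Of the negative genes, 1018 fell in both depots, 868 fell in BAT and were not called in WAT, 402 rose in WAT and were not called in BAT, 253 rose in WAT and fell in BAT, and 216 rose in both. Most positive genes, 1559, rose in both depots, 599 rose in BAT and were not called in WAT, 229 fell in both, 209 fell in WAT and were not called in BAT, and 135 fell in WAT and rose in BAT. These counts share their libraries with the depot difference and are not independent of it. They also depend on the scaling of the libraries. Under median-ratio scaling fewer genes were called higher and more were called lower in each depot, as given above, and the forms were not recounted there. Over the negative genes the median gap of BAT minus WAT was 0.52 in the controls and -0.04 with EGCG, and over the positive genes it was -0.28 in the controls and 0.20 with EGCG. The gap with EGCG equals the control gap plus the depot difference by construction.

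The genes with the most negative depot difference included mitochondrial and brown fat genes that were high in the BAT controls. Cox7a1 (chr7:30969190-30971047, build mm9), the heart and brown fat isoform of a cytochrome c oxidase subunit, was at 191, 189.8 and 176 FPKM in the BAT controls, in the order of replicates 1, 2 and 3 that holds for all values here. With EGCG it was at 2.87, 3.64 and 4.30 in BAT. In WAT it went from 22.5, 19.7 and 17.6 to 7.98, 6.96 and 8.96. None of the 4 groups overlapped another, and BAT went from the highest group to the lowest. The change was -5.50 in BAT and -1.39 in WAT, and the depot difference was -4.11 ± 0.21 (SE, 2 libraries a group, limma adjusted p = 1.94e-07), with -4.16 in replicate 3.

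Myoglobin (Mb, chr15:76845919-76881100), the oxygen-binding protein of muscle that brown fat also makes, fell in BAT from 55.1, 54.5 and 49.8 FPKM to 2.78, 3.79 and 5.39. In WAT it was at 2.87, 2.25 and 2.95 in the controls and at 4.10, 2.88 and 3.39 with EGCG. With EGCG the ranges of both depots overlapped, while every BAT control stood above every WAT control. Its depot difference was -4.04 ± 0.22 (limma adjusted p = 3.16e-07), and the change in WAT, 0.33, was not called. Mb overlaps Apol6 in the annotation, and since the strand setting of the counting was not given, reads of overlapping genes are uncertain.

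Chchd10 (chr10:75398318-75400470), a protein of the mitochondrial intermembrane space, fell from 287, 289 and 339.8 to 10.7, 10.3 and 13.4 FPKM in BAT and from 45.8, 46.2 and 59.6 to 20.5, 23.4 and 26.3 in WAT. No groups overlapped, and BAT again went from the highest group to the lowest. The depot difference was -3.61 ± 0.13 (limma adjusted p = 3.30e-08), with -3.42 in replicate 3.

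Other genes at this end were close to 0 in BAT with EGCG. O3far1, a receptor for long-chain fatty acids also called GPR120, went from 29.9, 27.9 and 31.3 FPKM to at most 0.0832 in BAT, and from 1.05, 1.63 and 1.47 to at most 0.221 in WAT. Slc25a34, a mitochondrial carrier, went from 21.5, 24.6 and 20.0 to at most 0.0720 in BAT. Cidea, a lipid droplet protein of brown fat, went from 11.1, 10.9 and 8.51 to at most 0.0812 in BAT and never passed 0.259 in WAT. In each of these genes the BAT control libraries stood above all the rest. The depot differences were -3.79, -3.40 and -3.54, and for Cidea the fit on reads gave -8.85.

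The 12 most negative genes also held Aspg (-3.44), which encodes an asparaginase, the protease inhibitor A2m (-3.23), and 6030408B16Rik and 8430408G22Rik (-3.24 and -3.22). A2m had controls that overlapped between the depots, at 48.1, 48.0 and 46.6 FPKM in BAT and 54.0, 29.6 and 31.7 in WAT. With EGCG it was at 0.873, 0.546 and 0.893 in BAT and at 12.1, 12.5 and 11.5 in WAT, so that it fell further in BAT from overlapping levels. Itih4, a plasma protein of the inter-alpha-trypsin inhibitor family, had -3.26 on the FPKM scale, and the fit on reads gave -0.98 (limma voom, adjusted p = 0.437). It went from 37.7, 40.3 and 41.2 to 0.169, 0.263 and 0.293 FPKM in BAT and from 2.11, 2.99 and 2.83 to 0.0183, 0.0318 and 0 in WAT. The next gene after the 12 most negative, Ntsr2, was at -3.08.

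**Figure D2:**
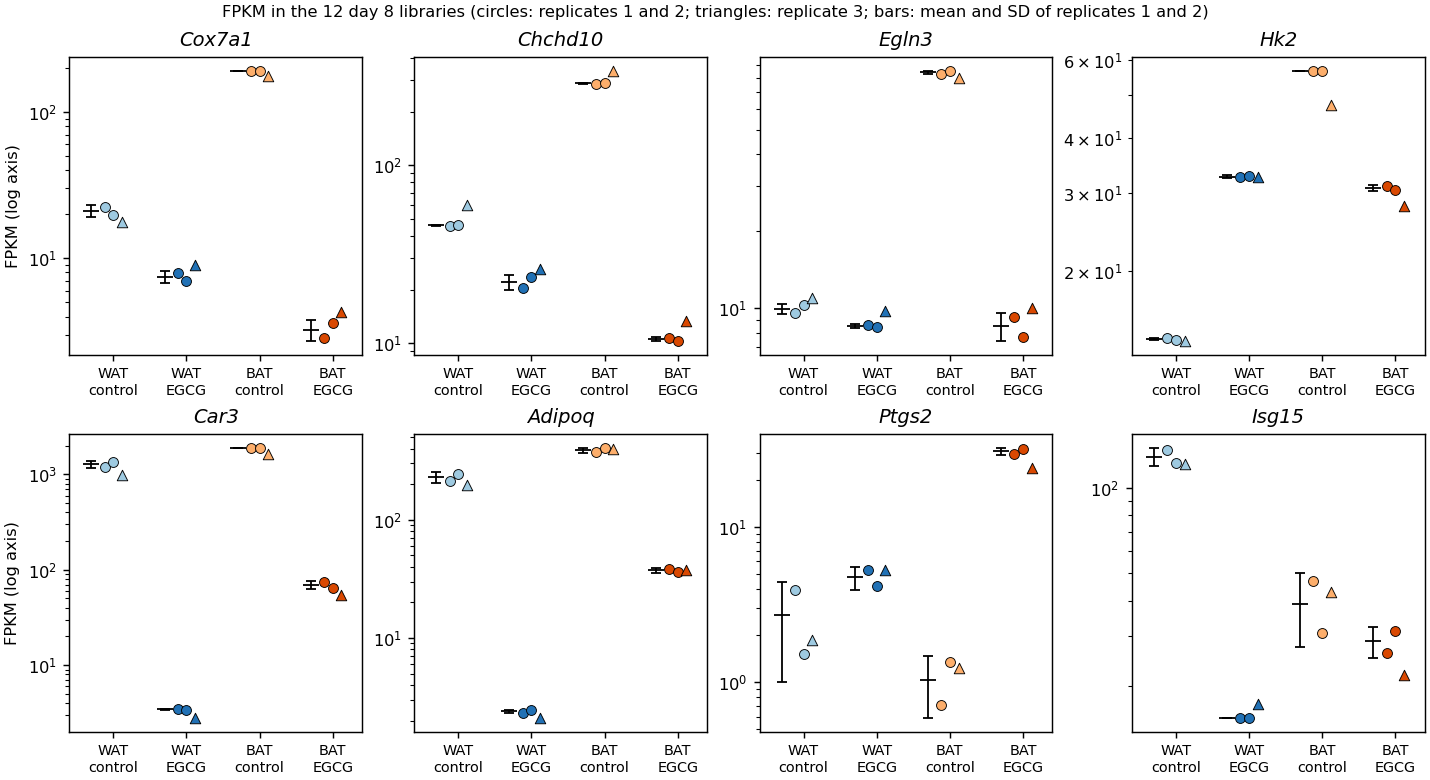
FPKM (log axis) of 8 genes in the 12 day 8 libraries, with circles for replicates 1 and 2, triangles for replicate 3 and bars for the mean and SD of replicates 1 and 2. Cox7a1 and Chchd10 go from highest in the BAT controls to lowest in BAT EGCG, Hk2 rises in WAT and falls in BAT to neighbouring levels, and Car3 and Adipoq fall further in WAT than in BAT.

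The mitochondrial pathways moved as groups. Cells oxidise fatty acids, branched-chain amino acids and pyruvate to acetyl units, burn these in the citric acid cycle and pass the electrons to the respiratory chain, whose proton gradient drives ATP synthase. Of 49 subunits of the respiratory chain and ATP synthase that were tested, 48 were called negative and none positive, against 19.7% and 19.4% of all genes. Their median depot difference was -1.02, and it was -1.12 in replicate 1 and -0.95 in replicate 3. In BAT 48 fell and in WAT 28, against 26.1% and 18.9% of all genes. The median changes were -1.30 in BAT and -0.30 in WAT, and 48 and 40 fell under median-ratio scaling. The median gap of BAT minus WAT was 1.19 in the controls and 0.17 with EGCG. Ndufb9, a subunit of complex I, went from 361, 332 and 349 FPKM to 83.9, 85.5 and 94.7 in BAT and from 114, 131 and 122 to 87.2, 82.9 and 92.7 in WAT. Its EGCG libraries overlapped between the depots, and its BAT controls stood above every other library. The member that was not called, Atp5g1, which encodes the ring subunit of ATP synthase as other genes also do, had a difference of 0.01 and was at 7.40 to 17.4 FPKM.

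The pathways that feed the chain gave similar numbers, against 19.7% negative and 19.4% positive calls over all genes. All 18 tested genes of branched-chain amino acid breakdown were called negative, with a median of -1.03, led by Bckdha (-1.70), a subunit of the branched-chain ketoacid dehydrogenase, and Pcca (-1.62), of propionyl-CoA carboxylase. Of 18 genes of the citric acid cycle and pyruvate entry 17 were called negative, with a median of -1.11. The exception was pyruvate carboxylase, Pcx, with changes of -4.21 in WAT and -4.27 in BAT and a depot difference of -0.06 ± 0.16.

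Of 18 genes of mitochondrial fatty acid oxidation 17 were negative, against 19.7% of all genes, with a median of -1.33. Hadhb, the beta subunit of the trifunctional protein, had -2.04 ± 0.07 and went from 124, 122 and 148 FPKM to 18.4, 18.1 and 25.1 in BAT and from 26.1, 27.1 and 32.9 to 17.6, 15.6 and 21.5 in WAT. Its BAT and WAT libraries overlapped with EGCG and not in the controls. The exception was Cpt1a, the liver isoform of carnitine palmitoyltransferase, which rose in both depots, from 9.79, 10.6 and 10.3 to 25.8, 25.8 and 24.3 in BAT and from 19.3, 14.1 and 14.4 to 27.0, 27.5 and 25.1 in WAT. Its depot difference was 0.57 (limma adjusted p = 0.0116), and 0.36 without replicate 1 of the WAT controls. For the amino acid, citric acid cycle and fatty acid genes the median gap of BAT minus WAT went from 1.14, 1.30 and 1.27 in the controls to 0.03, 0.17 and 0.01 with EGCG.

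The core of the binding motif of NRF1, a regulator of mitochondrial genes, was found on either strand in the 250 bases before the start of 7 of the 36 respiratory chain genes with a promoter in the RefSeq table (19.4%), against 4.23% of 27025 genes. The 27025 genes were not limited to those tested. These promoter windows are from the build GRCm38.p6, a later build than that of the expression data. A match describes the letters and is no sign that a factor was bound.

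**Figure D3:**
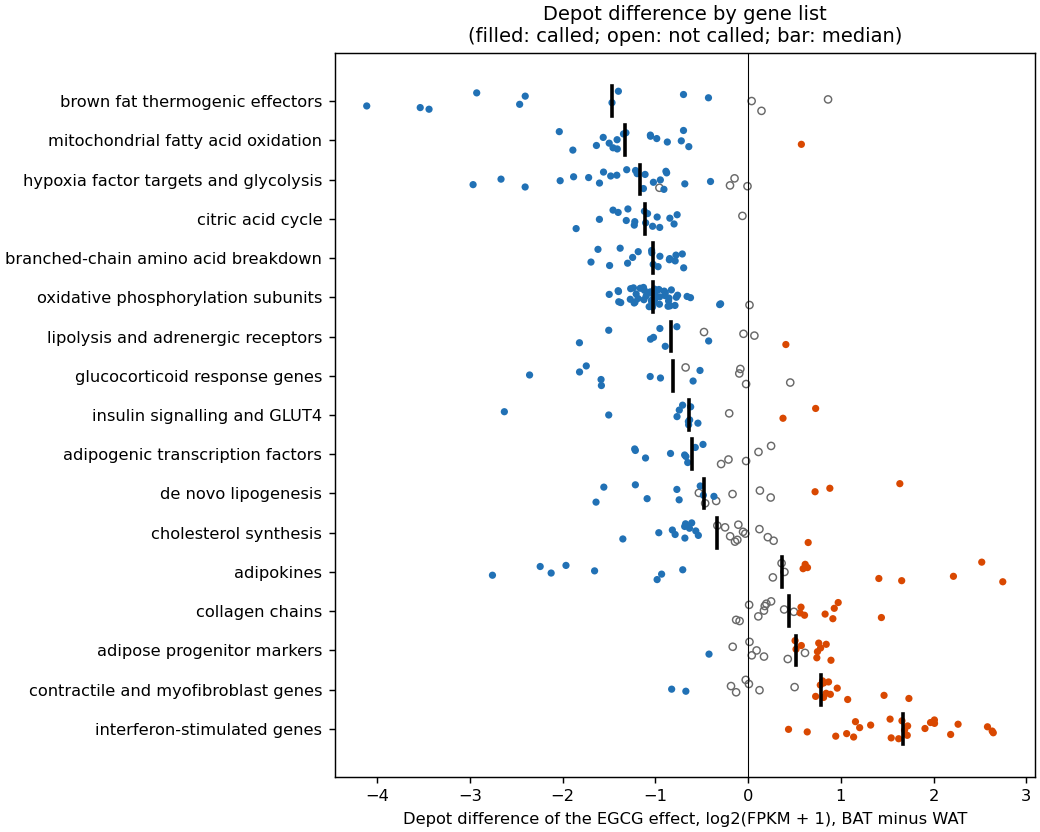
Depot difference (log2(FPKM + 1), BAT minus WAT, from replicates 1 and 2) of the members of 17 gene lists, with 1 point per gene, filled where called and open where not, and a bar at the list median. The mitochondrial and hypoxia lists lie to the left of 0 with few exceptions, and the interferon-stimulated genes lie wholly to the right.

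Genes of the hypoxia response and of glycolysis were negative as well, but in WAT fewer of them fell than in BAT. The hypoxia-inducible factors bind the core ACGTG and switch on glucose transporters, glycolytic enzymes and regulators of oxygen use. Of 26 genes tested 22 were called negative and none positive, against 19.7% and 19.4% of all genes, with a median of -1.16. The median change was 0.06 in WAT, where 12 rose and 6 fell against 44.7% and 18.9% of all genes, and -1.02 in BAT, where 2 rose and 22 fell against 46.5% and 26.1%. Under median-ratio scaling, which takes out the rise of the median gene, 7 rose and 9 fell in WAT with a median of -0.14, and 2 rose and 23 fell in BAT. The median gap of BAT minus WAT went from 0.84 in the controls to -0.30 with EGCG.

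The promoters of the 3 members with the most negative differences among those that held ACGTG on either strand are shown as the 250 bases before the start, read on the gene's strand, with the matches in capitals (RefSeq, GRCm38.p6). Egln3 is at chr12:54203875-54204124, Bnip3 at chr7:138909507-138909756 and Hk2 at chr6:82774455-82774704, all on the minus strand.
Egln3: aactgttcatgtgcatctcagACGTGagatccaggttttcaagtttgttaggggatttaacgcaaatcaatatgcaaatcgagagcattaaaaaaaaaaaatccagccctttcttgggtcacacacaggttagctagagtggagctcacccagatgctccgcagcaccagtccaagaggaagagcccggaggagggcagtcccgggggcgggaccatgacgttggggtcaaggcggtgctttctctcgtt
Bnip3: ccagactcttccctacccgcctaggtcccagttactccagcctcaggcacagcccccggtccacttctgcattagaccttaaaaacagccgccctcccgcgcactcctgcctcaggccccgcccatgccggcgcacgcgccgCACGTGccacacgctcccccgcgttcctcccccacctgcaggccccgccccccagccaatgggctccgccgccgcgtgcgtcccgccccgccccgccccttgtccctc
Hk2: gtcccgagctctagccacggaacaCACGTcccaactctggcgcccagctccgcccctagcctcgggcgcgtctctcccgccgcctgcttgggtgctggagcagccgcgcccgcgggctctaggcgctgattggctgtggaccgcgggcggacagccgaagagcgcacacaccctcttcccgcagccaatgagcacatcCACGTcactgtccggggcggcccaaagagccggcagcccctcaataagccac
The match in Egln3 begins 229 bases before the start. In Bnip3 overlapping matches begin 108 and 107 bases before the start, and in Hk2 they begin 226 and 52 bases before it. In all, 15 of the 24 genes of the list with a promoter in the table held ACGTG or its reverse complement (62.5%), against 18.5% of 27025 genes. Many members were listed as known targets of these factors, so a higher share follows in part from the choice. The 27025 genes were not limited to those tested.

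Egln3, a prolyl hydroxylase that marks the hypoxia factors for breakdown and is itself their target, stood at 83.0, 84.8 and 79.5 FPKM in the BAT controls and at 7.73 to 10.9 in all 9 other libraries. Its depot difference was -2.97 ± 0.13 (limma adjusted p = 9.83e-08), its change in BAT -3.17, and its change in WAT, -0.20, was not called but was called lower under median-ratio scaling, at -0.38. Ndufa4l2, a mitochondrial protein that hypoxia induces, was at 290, 312 and 330.2 FPKM in the BAT controls and at 50.3, 44.5 and 62.6 with EGCG. In WAT it was between 169.9 to 221 in all 6 libraries, so that BAT went from above WAT to below it. Its difference was -2.67. Bnip3, a mitophagy receptor, had -2.40 and Pfkfb3, which makes the allosteric activator of phosphofructokinase, had -1.88.

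Hexokinase 2 (Hk2, chr6:82675019-82724448), the isoform of insulin-responsive tissues, was called in opposite directions. In WAT it rose from 14.1, 14.0 and 13.9 FPKM to 32.5, 32.8 and 32.7, and in BAT it fell from 56.8, 56.7 and 47.4 to 31.2, 30.4 and 28.0. The controls lay far apart and the EGCG groups next to each other, and no groups overlapped. The difference between the depots was -2.03 ± 0.05 (limma adjusted p = 1.03e-09), with -1.92 in replicate 3. Slc16a3, the lactate exporter MCT4, had a change of 1.14 in WAT and of -0.42 in BAT, and it overlaps another gene in the annotation. The glycolytic enzymes Pfkl, Pfkp, Tpi1, Pgam1, Pkm2 and Eno1 likewise rose in WAT, by 0.19 to 0.59, and fell in BAT, with changes of -1.24 to -0.28. Under median-ratio scaling Pgam1 and Pkm2 still rose in WAT and the other 4 were not called there. The glucose transporter Slc2a1 and the hexokinase Hk1 rose in both depots and rose less in BAT, with differences of -0.89 and -0.41. Not called were P4ha1, Ddit4, Ankrd37 and Car9.

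Among 13 genes of brown fat thermogenesis 10 were called negative and none positive, against 19.7% and 19.4% of all genes, with a median of -1.47. Ucp1 itself was at 6.97, 6.15 and 4.20 FPKM in the BAT controls, at 0 in all 3 BAT EGCG libraries and at 0 in 5 of 6 WAT libraries, the other holding 1 read. Its difference, -2.93, describes a loss in BAT of a gene that WAT lacked at this depth, where 3 reads in a gene of 2 kb stand for 0.0284 to 0.0915 FPKM. Kcnk3, a potassium channel of brown fat, had -2.40 and fell from 42.7, 40.6 and 39.9 to 0.420, 0.471 and 0.502 FPKM in BAT. In WAT it fell from 4.55, 5.32 and 6.56 to at most 0.0969, and the fit on reads gave a difference of -0.13 (limma voom, adjusted p = 0.914). The deiodinase Dio2, which activates thyroid hormone, had -1.47 and was at 1.83 to 2.58 FPKM in the BAT controls and at 0.114 to 0.540 elsewhere. On the read scale the median of the list was -0.72 and 7 were called negative.

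Of 13 regulators of brown fat transcription 7 were negative and 2 positive, against 19.7% and 19.4% of all genes, with a median of -0.47. The negative ones were led by the factor Irf4 (-1.69) and by the coactivators of mitochondrial biogenesis Ppargc1b (-1.43) and Ppargc1a (-1.20). Without replicate 1 of the WAT controls the difference of Irf4 was -1.08. In the fit on reads Irf4 had -2.52 (limma voom, adjusted p = 0.340) and Ppargc1b -0.20 (adjusted p = 0.780). Ppargc1a was at 3.62, 3.60 and 3.15 FPKM in the BAT controls and at most 0.983 in the 9 other libraries. Esrra, a nuclear receptor that acts with it, fell from 40.5, 39.0 and 40.6 to 23.5, 22.4 and 28.8 FPKM in BAT, and its change in WAT, -0.08, was not called but was called lower under median-ratio scaling, at -0.27. The positive ones were the lineage factors Zic1 (0.84) and Lhx8 (0.40). Zic1 rose in BAT from 4.05, 3.57 and 4.38 to 8.00, 7.78 and 6.64 FPKM, with no overlap, and it was close to 0 in WAT throughout, where the fit on reads gave a difference of 0.37 (limma voom, adjusted p = 0.706).

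At the other end, several of the genes with the most positive depot difference fell in both depots and further in WAT. Carbonic anhydrase 3 (Car3, chr3:14863538-14872351), an abundant protein of adipocytes, was at 1197, 1358 and 993 FPKM in the WAT controls and at 1895.5, 1904.5 and 1649.8 in the BAT controls. With EGCG it was at 3.48, 3.38 and 2.78 in WAT and at 74.5, 64.5 and 53.9 in BAT. BAT was the higher depot in either treatment, no groups overlapped, and the distance between the depots was far wider with EGCG. Its depot difference was 3.41 ± 0.23 (limma adjusted p = 1.25e-06), with 3.13 in replicate 3. With 1 difference per replicate as the unit (n = 3, limma across all genes) it was 3.32, adjusted p = 0.0515.

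Adiponectin (Adipoq, chr16:23146609-23158101), a hormone of mature adipocytes, had the same order of groups. It was at 214, 246 and 195 FPKM in the WAT controls and at 374, 402 and 399.7 in the BAT controls, and with EGCG at 2.34, 2.45 and 2.10 in WAT and at 38.7, 36.1 and 37.7 in BAT. All 4 groups were apart, and the WAT EGCG libraries were by far the lowest. Its difference was 2.75 ± 0.13 (limma adjusted p = 1.36e-07), and it ranked just below the 12 most positive genes, beside Mup10 at 2.76.

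Of the major urinary proteins, lipocalins that carry pheromones, Mup17 (chr4:61252961-61256903) had the most positive value, 3.67 ± 0.21 (limma adjusted p = 4.34e-07). It fell from 59.0, 79.9 and 73.2 to 0.249, 0.244 and 0.199 FPKM in WAT and from 4.50, 4.89 and 7.33 to 0.253, 0.347 and 0.500 in BAT. Both depots were close to 0 with EGCG, and the WAT controls stood apart. With 1 difference per replicate it had 3.61 (limma across all genes, n = 3, adjusted p = 0.102). Mup18 (3.04) and Mup15 (2.91) also fell further in WAT, and Mup15 had 3.63 in the fit on reads (limma voom, adjusted p = 0.215). These genes are near copies of each other, so the split of reads among them is uncertain. Aox3, an aldehyde oxidase, had 2.85 on the FPKM scale and 0.02 in the fit on reads (limma voom, adjusted p = 0.991). It fell from 13.4, 16.7 and 13.7 FPKM to 0.242, 0.283 and 0.200 in WAT and from 1.04, 0.578 and 0.786 to at most 0.0324 in BAT.

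Ptgs2 and Ccl2, genes of inflammation, were positive through a rise in BAT. Ptgs2 (chr1:151947254-151955140), the inducible cyclooxygenase that makes prostaglandins, rose from 0.716, 1.35 and 1.23 to 29.6, 32.0 and 24.1 FPKM in BAT and from 3.93, 1.51 and 1.86 to 5.28, 4.18 and 5.26 in WAT, where the rise was not called under median-ratio scaling. The BAT EGCG libraries stood above all the others. The depot difference came to 3.29 ± 0.36 (limma adjusted p = 3.96e-05), with 2.36 in replicate 3. Ccl2 (chr11:81849073-81850955), the chemokine that draws monocytes, rose from 4.49, 6.34 and 6.61 to 33.6, 42.2 and 40.4 FPKM in BAT. In WAT it was at 24.1, 15.0 and 14.1 in the controls and at 17.6, 15.4 and 18.7 with EGCG, overlapping groups whose change of -0.20 was not called. Its difference was 2.81 ± 0.27, and BAT went from below WAT to above it.

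**Figure D4:**
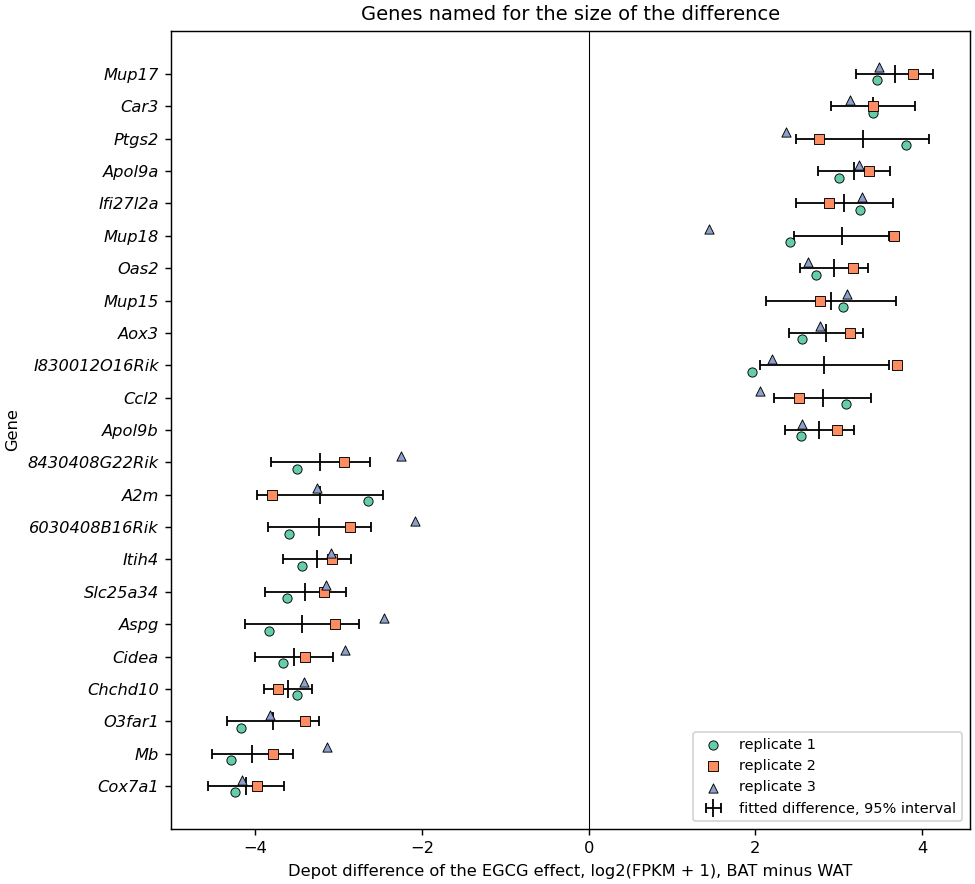
Depot difference in log2(FPKM + 1) of 23 genes named for its size, with a vertical tick at the fitted value, a bar for its 95% interval, and a circle, square and triangle for the values of replicates 1, 2 and 3. Genes were named only where all replicates had the sign of the fitted value, so the shared side of 0 follows from the choice, and the values of Mup18 are the most spread.

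The list of 21 chemokines, cytokines and their receptors had 9 positive and 2 negative calls, against 19.4% and 19.7% of all genes, and a median of 0.11. Beside Ccl2 the largest positive values were those of Cxcl10 (2.43), Ccl7 (2.18), Ccl11 (1.61), Il6 (1.56), Ccl8 (1.47) and Csf1 (1.19), of which Il6 was not called in the fit on reads (limma voom, adjusted p = 0.0518). Ccl7, another chemokine for monocytes, rose from 9.07, 12.2 and 12.1 to 115, 127 and 137 FPKM in BAT and from 37.6, 16.2 and 16.8 to 59.7, 58.2 and 72.1 in WAT. Csf1, the growth factor of macrophages, rose from 127, 131 and 123 to 465, 488.5 and 475 in BAT and from 195, 187 and 174 to 308, 307.5 and 309 in WAT. In both genes BAT was below WAT in the controls and above it with EGCG. Without replicate 1 of the WAT controls there were 6 negative calls, and the median of the list was 0.35 without replicate 2 of the WAT controls, 0.28 without replicate 1 of BAT EGCG, 0.22 without replicate 2 of the BAT controls and 0.07 without replicate 1 of WAT EGCG.

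The interferon-stimulated genes were positive without exception. Type I interferon acts through factors that include Stat2 and Irf9, which bind a response element called the ISRE and switch on antiviral genes. All 24 tested members were called positive, against 19.4% of all genes, with a median of 1.67 and medians of 1.36, 2.08 and 1.10 in replicates 1, 2 and 3. In WAT 23 fell, against 18.9% of all genes, Ifit2 was not called, and the median change was -2.43. In BAT 18 fell, 2 rose (Ifit2, and Ddx58, which was not called under median-ratio scaling) and 4 were not called. Over all genes 26.1% fell and 46.5% rose in BAT. The median change of the list in BAT was -0.54. The median gap of BAT minus WAT was -1.36 in the controls and 0.27 with EGCG.

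The promoters of the 3 members with the highest differences among those that held the core of the ISRE on either strand are printed with the matches in capitals. Ifit1 is at chr19:34640639-34640888 and Ifit3 at chr19:34583279-34583528, both on the plus strand, and Isg15 is at chr4:156200819-156201068 on the minus strand (RefSeq, GRCm38.p6, the 250 bases before the start).
Ifit1: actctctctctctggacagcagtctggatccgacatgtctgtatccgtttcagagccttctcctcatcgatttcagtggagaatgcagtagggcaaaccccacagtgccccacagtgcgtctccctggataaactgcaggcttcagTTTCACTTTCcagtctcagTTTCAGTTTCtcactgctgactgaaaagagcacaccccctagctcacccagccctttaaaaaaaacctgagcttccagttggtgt
Ifit3: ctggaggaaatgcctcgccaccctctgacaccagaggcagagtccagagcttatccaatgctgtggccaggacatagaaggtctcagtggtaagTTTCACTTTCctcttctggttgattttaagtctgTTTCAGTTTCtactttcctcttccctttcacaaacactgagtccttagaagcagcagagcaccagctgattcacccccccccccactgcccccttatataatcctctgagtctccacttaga
Isg15: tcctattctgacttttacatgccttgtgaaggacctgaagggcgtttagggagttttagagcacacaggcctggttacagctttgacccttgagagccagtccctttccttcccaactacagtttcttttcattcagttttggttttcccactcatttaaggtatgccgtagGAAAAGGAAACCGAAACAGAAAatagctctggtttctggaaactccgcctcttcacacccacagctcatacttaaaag
The matches begin 104 and 85 bases before the start in Ifit1 and 156 and 122 in Ifit3, and in Isg15 3 overlapping matches begin between 78 and 66 bases before it. Among 17 genes of the list that had a promoter, 9 held the motif (52.9%), against 3.46% of 27025 genes. The members were listed as genes that interferon induces, so a higher share follows in part from the choice. The 27025 genes were not limited to those tested.

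Isg15, a ubiquitin-like modifier, went from 135.5, 122 and 121 to 15.5, 15.5 and 17.3 FPKM in WAT and from 46.9, 30.8 and 42.9 to 26.3, 31.4 and 22.0 in BAT. The WAT groups were far apart, while the BAT groups overlapped by 1 library. Its difference was 2.58 ± 0.22 (limma adjusted p = 6.48e-06). Bst2, or tetherin, which holds virions at the cell surface, went from 262, 259.9 and 271 to 44.4, 41.8 and 49.3 in WAT and from 74.5, 60.8 and 82.3 to 35.8, 33.0 and 36.8 in BAT, with no overlap within either depot. Its difference was 1.62. Factors of the pathway had 1.66 for Stat2, 1.20 for Irf9 and 1.91 for Irf7, which amplifies the response.

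Ifit1 and Ifit3, antiviral proteins that interferon induces, had the highest differences of the list and the widest errors, 2.64 ± 0.47 and 2.63 ± 0.52. Ifit1 was at 18.5, 9.68 and 9.74 FPKM in the BAT controls and at 4.62, 11.1 and 4.10 in BAT EGCG, which overlap. In WAT it went from 35.5, 34.7 and 28.7 to 2.12, 2.50 and 3.66, with no overlap. The difference was 1.75 in replicate 1 and 3.53 in replicate 2. Among the 12 most positive genes Oas2 (2.94) and Ifi27l2a (3.07), which interferon also induces, are outside the list, as are Apol9a (3.18), Apol9b (2.77) and I830012O16Rik (2.83). Oas2 went from 30.5, 30.4 and 25.6 to 0.442, 0.570 and 0.373 FPKM in WAT and from 2.84, 2.10 and 2.76 to 0.162, 0.391 and 0.205 in BAT. Apol9a and Apol9b are near copies of each other, and Ifi27l2a overlaps another gene in the annotation, so their reads are uncertain.

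**Figure D5:**
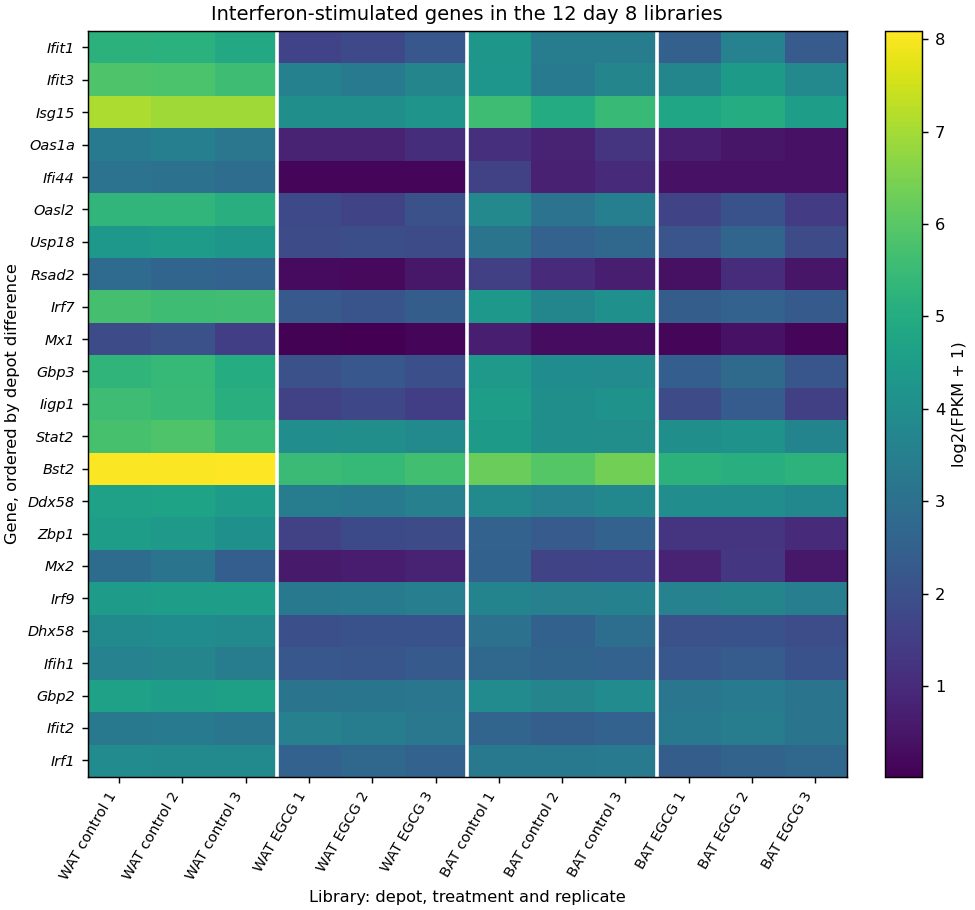
Colour map of log2(FPKM + 1), from dark (low) to yellow (high), of 23 interferon-stimulated genes (rows, ordered by depot difference) in the 12 day 8 libraries (columns, 3 per group, divided by white lines). The WAT control columns are the brightest in most rows, as for Isg15 at 121 to 135.5 FPKM, and the EGCG columns of both depots are mostly darker than their controls.

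The secreted proteins of adipocytes divided between both signs. Of 19 adipokines tested 8 were positive and 8 negative, against 19.4% and 19.7% of all genes. Positive with Adipoq were Saa3 (2.52), an acute phase protein, Hp (2.21), which is haptoglobin, and Cfd (1.41), the complement protease adipsin. Hp went from 1918, 2542 and 2543 to 16.4, 19.6 and 19.2 FPKM in WAT and from 5339.7, 5770.4 and 6849.7 to 233, 207 and 246 in BAT. Negative were Lcn2 (-2.76), Rarres2 (-2.24), which is chemerin, Lpin1 (-2.12), Rbp4 (-1.97), the retinol carrier, and Nampt (-1.66). Rbp4 went from 143, 133 and 122 to 4.42, 4.58 and 4.85 in WAT and from 298, 309 and 326 to 2.01, 2.17 and 2.42 in BAT. Hp and Rbp4 were both higher in the BAT controls than in the WAT controls, and with EGCG Hp was higher in BAT and Rbp4 lower, with no overlap of libraries in either gene. Leptin, Lep, had -0.93 on the FPKM scale and 3.79 in the fit on reads (limma voom, adjusted p = 5.03e-04), with 21.3, 21.8 and 17.8 FPKM in the WAT controls, 57.1, 58.4 and 59.8 in the BAT controls, at most 0.00770 in WAT EGCG and at most 0.569 in BAT EGCG.

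Both signs also met on the surface of the lipid droplet. Perilipin 1 (Plin1), which coats the droplet of mature adipocytes, had 2.07 ± 0.20, with 147, 135 and 119 FPKM in the WAT controls, at most 0.707 in WAT EGCG, 338, 322 and 297 in the BAT controls and 13.5, 12.3 and 10.1 in BAT EGCG. Perilipin 5 (Plin5), the perilipin of oxidative tissues, had -2.35, with 22.8, 18.2 and 27.1 FPKM in the BAT controls and at most 0.240 in every EGCG library, and the fit on reads gave -1.74 (limma voom, adjusted p = 0.0922). Of 15 droplet proteins 9 were negative, against 19.7% of all genes, and 2 positive, Plin1 and Cidec (0.70), against 19.4%. Of 12 genes of lipolysis and adrenergic signalling 8 were negative and 1 positive. Among the negative ones were the phosphodiesterase Pde3b (-1.50) and the triglyceride lipase Pnpla2 (-0.95). Adrb3 (-0.43), Aqp7 (-1.05) and Adora1 (-0.89) were also negative, with means of 0.389, 0.0362 and 0.0385 FPKM in WAT EGCG. There the added 1 understates the fall in WAT, and the sign of these genes depends on the scale. The mean of Adrb3 went from 17.9 to 0.389 FPKM in WAT and from 97.8 to 4.42 in BAT. That of Aqp7 went from 3.96 to 0.0362 in WAT and from 14.4 to 0.559 in BAT. For Adora1 the means were 6.11 and 0.0385 in WAT and 14.1 and 0.184 in BAT. As ratios of these means each gene fell further in WAT, though the WAT EGCG means of Aqp7 and Adora1 are close to 0. The hormone-sensitive lipase Lipe, at 0.07, was not called, with changes of -4.28 in WAT and -4.22 in BAT.

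Of 14 adipogenic transcription factors 9 were negative and none positive, against 19.7% and 19.4% of all genes, with a median of -0.61. Pparg was at 54.2, 66.2 and 54.0 FPKM in the WAT controls and at 139.5, 137 and 118 in the BAT controls, and with EGCG at 9.06, 8.05 and 7.62 in WAT and at 11.3, 11.1 and 9.17 in BAT. It was low in all 6 EGCG libraries and its difference was -0.84 (limma adjusted p = 0.00103). Stat5a had -1.22, Srebf1 -1.22 and Klf15 -1.11, and Cebpa, at -0.29, was not called. Fabp4, the fatty acid carrier of adipocytes, had changes of -4.99 in WAT and -5.07 in BAT and a depot difference of -0.08 ± 0.14, which was not called.

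Genes of fat and sterol synthesis leaned to the negative side, against 19.7% negative and 19.4% positive calls over all genes. Of 18 genes of de novo lipogenesis 9 were negative, led by Acacb (-1.64) and Scd2 (-1.56), and 3 were positive, namely Scd1 (0.88), Me1 (0.72) and Thrsp (1.64), of which Thrsp was not called in the fit on reads (limma voom, adjusted p = 0.161). Without replicate 1 of the WAT controls 6 were positive. Thrsp had 2.27 without replicate 1 of the WAT controls and 1.003 without replicate 2. Scd1, the stearoyl-CoA desaturase of adipocytes, went from 4254, 4425 and 3585 to 57.4, 60.9 and 59.8 FPKM in WAT and from 8438, 8207 and 7547 to 214, 209 and 195 in BAT. Its close relative Scd2 went from 249, 256.5 and 257 to 176, 178 and 187 in WAT and from 514, 486 and 475 to 119.6, 117 and 122 in BAT. Both desaturases were higher in the BAT controls, and with EGCG Scd1 was still higher in BAT while Scd2 was lower.

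Of 23 genes of cholesterol synthesis 11 were negative and 1 positive, against 19.7% and 19.4% of all genes. They were led by squalene synthase, Fdft1 (-1.35), which rose in WAT from 14.0, 13.5 and 13.1 to 28.2, 28.4 and 26.7 FPKM and fell in BAT from 22.4, 24.4 and 22.1 to 18.1, 17.8 and 17.9. Of 13 genes of insulin signalling and glucose uptake 10 were negative and 2 positive, led by Ppp1r3c (-2.63), which targets a phosphatase to glycogen. Irs2 (-0.77) and Akt2 (-0.64), which pass on the insulin signal, were among the negative genes. The insulin-responsive transporter GLUT4, Slc2a4, had -0.74 and was not called in 6 of the 8 fits that left out 1 day 8 library, with -0.47 without replicate 1 of the WAT controls, and the fit on reads gave -0.16 (limma voom, adjusted p = 0.867).

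Genes of the cytoskeleton, the matrix and the precursor cells leaned to the positive side. Of 20 contractile and myofibroblast genes 12 were positive and 2 negative, against 19.4% and 19.7% of all genes, with a median of 0.79. Smooth muscle actin, Acta2, rose from 233, 162 and 182 to 329.6, 314 and 409 FPKM in WAT and from 209, 249.8 and 294 to 755, 841 and 989 in BAT. The controls of both depots overlapped, and the BAT EGCG libraries stood above all the rest. Its difference was 1.07 ± 0.25 (limma adjusted p = 0.00518). The actin-binding and motor proteins Tagln (0.81), Tpm1 (0.87), Myh9 (0.96) and Actn1 (0.81) also rose in both depots and more in BAT. Myh11 (-0.83), the myosin of mature smooth muscle, and desmin, Des (-0.67), were the negative ones.

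Of 18 collagen chains 8 were positive and none negative, against 19.4% and 19.7% of all genes, with a median of 0.44. Most chains fell with EGCG. In WAT 4 rose and 12 fell, against 44.7% and 18.9% of all genes, with a median change of -0.98. In BAT 4 rose and 10 fell, against 46.5% and 26.1%, with a median change of -0.40. Under median-ratio scaling 1 rose and 13 fell in WAT, and 4 rose and 12 fell in BAT. The fibrillar chain Col1a1 fell in both depots, from 3223, 2431 and 3217 to 962, 1017 and 1179 FPKM in WAT and from 1029.8, 1060.4 and 1428.5 to 646, 667 and 748 in BAT, and its difference was 0.83. Col15a1, a chain of the basement membrane zone, had the highest value, 1.44. Of 17 markers of adipose progenitors 9 were positive and 1 negative, with a median of 0.52. The growth factor receptor Pdgfrb (0.84) rose from 80.0, 71.3 and 72.6 to 149.8, 146 and 149 FPKM in WAT and from 62.3, 61.8 and 66.0 to 216, 221 and 218 in BAT, where the order of the depots turned. Anxa3 (0.89) turned likewise, and Klf4 (0.78) rose more in BAT but was still lower there than in WAT with EGCG.

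Of 24 genes of DNA replication and mitosis 6 were positive and 1 negative, against 19.4% and 19.7% of all genes. Their median was 0.18, with 0.10 without replicate 2 of WAT EGCG and 0.09 without replicate 1 of the BAT controls. The subunits of the replicative helicase were split. Mcm3 (0.66), Mcm5 (0.64), Mcm2 (0.53) and Mcm4 (0.31) were positive, Mcm6 (0.19) was not called and Mcm7 (-0.45) was the negative gene. Mki67, a marker of dividing cells, was not called. Of 15 inhibitors of the cycle, D cyclins and p53 targets 7 were positive and 3 negative, and Cdkn2b (0.92) and Cdkn2a (0.90), which arrest the cycle, and Mdm2 (0.65) were positive. In BAT Cdkn2b rose by 0.40, which was not called under median-ratio scaling. The change of Cdkn2a in BAT, -0.07, was not called but was called lower under that scaling, at -0.25.

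Genes of the stress and glucocorticoid responses were called on the negative side, by amounts that depended on single WAT control libraries. Of 22 genes of the integrated stress response 10 were negative and none positive, against 19.7% and 19.4% of all genes, with a median of -0.39. Without replicate 1 of the WAT controls 14 were negative and 1 positive, with a median of -0.61, and without replicate 2 of the WAT controls 11 and 2, with a median of -0.20, and the lowest negative count was 7. Trib3, a pseudokinase that the stress factor Atf4 induces, had -2.74 ± 0.17, falling in BAT from 62.5, 66.2 and 63.9 to 9.51, 9.37 and 11.1 FPKM. In WAT it was between 15.2 to 22.7 in all 6 libraries, so the BAT controls were the highest group and the BAT EGCG libraries the lowest. Atf4 itself, at -0.28, was not called, and it rose by 0.73 in WAT and by 0.45 in BAT. Within the depots 15 genes of the list rose and 3 fell in WAT, against 44.7% and 18.9% of all genes. In BAT 9 rose and 8 fell, against 46.5% and 26.1% of all genes. Under median-ratio scaling 13 rose and 5 fell in WAT, and 9 rose and 12 fell in BAT. Of 14 genes that glucocorticoids induce 9 were negative and none positive, with a median of -0.81. That median was -0.49 without replicate 1 of the WAT controls and -1.25 without replicate 2. They were led by metallothionein 2, Mt2 (-2.36), the kinase Pdk4 (-1.82), Zbtb16 (-1.75) and the chaperone Fkbp5 (-1.59), while the receptor, Nr3c1, was not called (-0.10). In Pdk4, Zbtb16 and Fkbp5 replicate 1 of the WAT controls was the lowest of its group, and the difference of replicate 3 was -0.71, -0.93 and -0.79.

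Genes that were called in both depots in opposite directions numbered 388. The ones with the most negative difference were Anxa8 (-2.85), Chac1 (-2.42), Mt1 (-2.13), Hcn2 (-2.03), Hk2 (-2.03) and Aqp1 (-1.95). Annexin A8 (Anxa8, chr14:34899167-34913757) rose in WAT from 1.95, 2.17 and 3.34 to 17.9, 15.2 and 15.9 FPKM and fell in BAT from 15.8, 18.4 and 17.8 to 14.1, 12.6 and 12.3. The WAT controls stood alone, and the other 3 groups lay between 12.3 to 18.4. Metallothionein 1 (Mt1), which binds zinc and copper, went from 1412.5, 1663 and 1823 to 1943, 1898 and 2208 in WAT and from 2433, 2574 and 2869 to 799.9, 639.9 and 944 in BAT. Here the BAT EGCG libraries stood alone at the bottom. Chac1, which breaks down glutathione, rose in WAT from 2.80, 1.25 and 2.10 to 10.4, 8.17 and 11.5 and fell in BAT from 8.26, 8.83 and 7.40 to 4.84, 5.62 and 6.94. Mt1 and Mt2 are close copies of each other, and the split of their reads is uncertain.

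On the positive side these were Apol9a (3.18), Apol9b (2.77), Irgm1 (2.19), Cpz (2.03), Akr1c14 (1.95) and Actg2 (1.73). Irgm1, a GTPase that interferon-gamma induces, fell in WAT from 15.7, 16.7 and 14.1 to 5.23, 4.92 and 4.93 FPKM and rose in BAT from 7.28, 5.28 and 5.70 to 9.63, 11.7 and 9.62. Cpz, a secreted carboxypeptidase, went from 13.0, 14.0 and 13.9 to 3.49, 3.34 and 3.67 in WAT and from 1.22, 0.970 and 1.11 to 1.61, 1.59 and 1.65 in BAT. In both genes no control library overlapped the EGCG libraries of its depot, but the rise of Cpz in BAT was small, at 0.31. Under median-ratio scaling the rises of Cpz and Apol9a in BAT and of Mt1 in WAT were not called. Actg2, the gamma actin of smooth muscle, rose in BAT from 9.69, 15.2 and 15.7 to 24.9, 28.9 and 31.4 and fell in WAT from 11.3, 10.4 and 10.8 to 6.22, 6.83 and 8.91.

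Several further lists had calls in both directions, against 19.4% positive and 19.7% negative calls over all genes. Of 24 targets of the transcription factor NRF2 and other antioxidant genes, a list that also holds NRF2 itself (Nfe2l2) and its inhibitor Keap1, 10 were negative and 6 positive. The metallothioneins Mt2 and Mt1 led the negative ones. Hmox1, which degrades haem, rose in both depots with a difference of -0.50, and Nqo1, a quinone reductase, rose in both with 0.95. Genes of TGF-beta and BMP signalling had 10 positive and 8 negative calls of 25, among them the ligands Tgfb3 (1.23) and Tgfb2 (1.11) as positive and the BMP antagonist Chrdl1 (-1.34) as negative. Of 15 genes of fatty acid uptake 7 were negative, led by the lipoprotein lipase Lpl (-1.66), and 4 positive, led by Acsl1 (1.04), which activates fatty acids, and Cd36 (1.03), which takes them up. Of 14 genes of triglyceride synthesis 9 were negative and 1 positive. Prl2c3, a proliferin, had 2.28 and rose in both depots, from at most 0.450 FPKM to 3.53, 2.07 and 1.88 in WAT and from at most 0.388 to 13.9, 16.8 and 12.3 in BAT. Reads of the proliferin genes may be shared among near copies, and the other proliferin tested was not called.

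The remaining lists had calls in both directions, and over all genes 19.4% were called positive and 19.7% negative. White fat and inguinal markers had 5 positive and 1 negative calls of 11, matrix proteases and their inhibitors 7 and 6 of 20, and complement genes 4 and 4 of 14. Wnt genes had 6 and 4 of 22, with 2 to 10 positive when 1 library was left out. Iron genes had 1 and 6 of 12, with 3 negative without replicate 1 of WAT EGCG or replicate 2 of BAT EGCG. Insulin-like growth factor genes had 3 and 2 of 12, and carbonic anhydrases 1 (Car3) and 1 of 6. A list of MHC class II presentation had 2 and 2 of 6. Its positive genes, Cd80 (2.03) and Ctss (0.51), are not class II genes themselves. The class II genes H2-Ab1 (-1.88) and H2-Eb1 (-0.74, with 0.51 in replicate 3) were the negative ones.

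Markers of other cell types moved with treatment and depot, and their part in the results above was not tested. The summed FPKM of 16 macrophage markers was 171.5 to 219.7 in the WAT controls, 68.5 to 78.8 in WAT EGCG, 162.9 to 179 in the BAT controls and 72.6 to 73.2 in BAT EGCG. Of these markers 6 of 14 tested were positive and none negative, against 19.4% and 19.7% of all genes, and none was at 0 in a whole group. Their median was 0.52, with 0.28 without replicate 2 of the WAT controls. The sum of 14 endothelial markers was 59.6 to 64.1, 89.6 to 103.5, 50.2 to 56.5 and 118 to 131 in the same order of groups, and 6 of 13 were positive and 1 negative. The sum of 19 skeletal muscle markers was 60.2 to 73.8, 71.0 to 82.7, 138 to 153 and 65.7 to 88.5, and the muscle precursor factor Myf5 was at 0 in the WAT control and BAT EGCG libraries. Of 14 muscle markers tested 8 were negative, Mb among them, and 3 to 5 were when 1 of 6 of the libraries was left out, with the lowest count without replicate 2 of WAT EGCG. The sum of 13 mesothelial and epithelial markers was higher in WAT, at 25.6 to 64.0, than in BAT, at 7.79 to 13.0, with Krt14 and Upk3b at 0 in all BAT libraries, and 1 of 10 was positive and 2 negative. The sum of 9 Schwann and nerve markers was 72.7 to 118.5 and 173 to 196 in WAT and 84.5 to 86.2 and 212 to 236.5 in BAT, with 2 of 8 positive. The sum of 11 placental markers was at most 0.616 in the controls, 13.8 to 15.2 in WAT EGCG and 26.2 to 32.6 in BAT EGCG, where the proliferin Prl2c2 was the only marker that passed the filter on low values. None of 12 testis markers passed it.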

How the data were processed

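Total RNA of 24 libraries was sequenced (2 depots, days 4 and 8, EGCG or DMSO, 3 replicates per group), and groups and replicate numbers come from the sample labels. The authors deposited FPKM values per gene in 2 tables of 37310 genes, with replicates 1 and 2 in the first and replicate 3 in the second. The submitters' processing notes name FastQC 0.11.9, HISAT2 2.2.0, HTSeq 0.11 and mm9, and the strand setting of the counting was not given in the sources used here. The FPKM values as deposited were whole multiples of 1 read for every gene (tolerance 0.01 read) when gene length was taken as the longest transcript, so reads were recovered for the fit on reads. Replicate precision is limited by the number of libraries, and limits from a count of 3 reads cover counting error only.

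Values were analysed as log2(FPKM + 1), with genes kept at 1 FPKM or more in 2 of the 16 libraries of replicates 1 and 2. These 16 libraries, day 4 included, were fitted with 1 mean per group (limma 3.58.1 in R 4.3.3, trend in eBayes, 8 residual degrees of freedom), and p-values were adjusted over all genes by Benjamini-Hochberg. Replicate 3 was kept out of the test because its table was scaled separately, and in the WAT EGCG library 5 genes were removed and the rest rescaled by 2.56. Genes are named by a rule: those called, with a mean of 5 FPKM or more in a day 8 group and the same sign in replicates 1 to 3, taking the 12 highest and 12 lowest differences, and the 6 highest and 6 lowest among genes called in opposite directions, beside members of the gene lists and checks of labels. Some genes that the rule or the lists hold are not reported here, though they are in the counts. Of 764 list entries 757 were matched, 9 of them through another symbol. The comparison, the lists and their members were chosen with earlier results of these data known. Promoter sequences are from RefSeq on GRCm38.p6, matched by symbol. Alternatives were a pseudocount of 0.1, other filters, median-ratio and quantile scaling, limma voom on reads, day 8 alone, a replicate block, both tables together, 1 difference per replicate, and leaving out libraries. The script was tested on simulated data. Tables and plots used Python 3.11.15, pandas 2.3.3, numpy 2.4.6 and matplotlib 3.10.9.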

Additional observations from a re-analysis of the deposited data

Results flagged for a closer look

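The effect of EGCG differed between the depots for 5520 genes by the test of the difference itself (limma, adjusted p under 0.05).

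The genes named for opposite directions are listed here because WAT and BAT moved apart and the difference was called. On the positive side, with a fall in WAT and a rise in BAT, the depot differences were 3.18 for Apol9a, 2.77 for Apol9b, 2.19 for Irgm1, 2.03 for Cpz, 1.95 for Akr1c14 and 1.73 for Actg2. On the negative side, with a rise in WAT and a fall in BAT, they were -2.85 for Anxa8, -2.42 for Chac1, -2.13 for Mt1, -2.03 for Hcn2, -2.03 for Hk2 and -1.95 for Aqp1. The steps within BAT were small for some of them, with 0.31 for Cpz and -0.33 for Anxa8.

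In the replicate 3 library of WAT EGCG 61.0% of the reads were on 5 genes that had 0 to 5 reads in each other library, among them the placental gene Prl3d1. They were outside the comparison.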

How the results depend on the processing

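Of the counts of called genes under all alternatives 130 stayed within 1.5 times the reported count and 6 did not. All 6 came from fitting both tables with a replicate block as deposited, without removing the 5 genes from the replicate 3 library of WAT EGCG: 700 genes had a called depot difference (461 positive, 239 negative, 545 at 1 log2 unit or more), with 2372 called in WAT and 4636 in BAT. The 5520 called genes were 4523 to 5726 in number when 1 of the day 8 libraries of replicates 1 and 2 was left out, and 3875 without replicate 2 of both tables. Scaling changed the split of higher and lower calls within each depot, as given with the counts, and 5430 of the 5520 were called with the same sign under median-ratio scaling. In the fit on reads 4991 of the 5520 were called with the same sign and 5 with the opposite sign. For the 854 genes at 1 log2 unit or more, 739 were called with the same sign there and 13 had the opposite sign, and 20 had less than 0.5 of the size. At that size the fit on reads called 1209 genes and a pseudocount of 0.1 called 1225.

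For the genes named for the size of their depot difference or for opposite directions, 777 values kept their side of the threshold and their sign and 5 lost the call, those of Aox3, Itih4 and Mup15 in the fit on reads and of Mup17 and Car3 with 1 difference per replicate, with values given beside each gene. Among the list members described above Kcnk3, Irf4, Ppargc1b, Zic1, Plin5, Thrsp, Il6 and Slc2a4 lost the call in the fit on reads, and Lep was called there with the opposite sign. Over all alternatives 777 medians of the lists moved by less than 1 SD of the list median over the 3 replicates and 143 by more, of which 37 were in the fit of both tables as deposited, 14 without replicate 2 of the WAT controls, 11 in the fit on reads, and 10 each under quantile normalization and without replicate 1 of both tables. In the lists, 45 counts of 3 or more calls were recomputed without each library and 4 moved by over 1.5 times (Wnt, iron, muscle and lipogenesis, given with those lists), as did 14 of 23 counts of 1 or 2 calls. Of the list medians printed, those of the glucocorticoid, stress response, chemokine, replication and macrophage lists moved by over 1.5 times without 1 library, as given there.

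Replicate numbers are shared between groups, but deviations of libraries with the same number correlated by only -0.04 to 0.02 between day 8 groups, so the numbers were not taken as pairs. With the replicate block on replicates 1 and 2, 5395 genes were called.

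Depth limits genes near 0: 3 reads in a gene of 2 kb stand for 0.0284 to 0.0380 FPKM in replicates 1 and 2 and for 0.0360 to 0.0915 in replicate 3. With 2 libraries a group in the test, the spread within groups rests on few libraries.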
